A study of Homo sapiens with 32 samples.

Results

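The 9 genes described here encode antigens of the MAGE-B, MAGE-C and NY-ESO-1 families: MAGEB1, MAGEB2, MAGEB6, MAGEC1, MAGEC2, MAGEC3, CTAG1A, CTAG1B and CTAG2. They were taken by gene symbol from the counts of 32 RNA-seq libraries and are 9 of the 25559 symbols listed for each library. Their levels are described across 4 human T-cell lines, the doses of azacitidine, and romidepsin given or not.

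These genes belong to the cancer testis antigens, which are transcribed in germ cells of the testis, are silent in most other adult tissues, and reappear in some tumours. All 9 lie on the X chromosome, and DNA methylation of CpG sites at their promoters is known to keep them off in somatic cells. Azacitidine is a cytidine analogue that traps DNA methyltransferases, so that methylation is lost as cells divide. Romidepsin inhibits histone deacetylases. MAGE proteins share a conserved domain that binds ubiquitin ligases, and NY-ESO-1, the product of CTAG1A and CTAG1B, is an antigen that T cells of patients recognise.

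The study exposed the lines for 96 hours, and each line gave 8 libraries with 1 library per condition. By the labels, PF382 is T-cell acute lymphoblastic leukemia. TLOm1 is adult T-cell leukemia, while cutaneous T-cell lymphoma gave rise to H9 and HH. The 10 groups were untreated cells, romidepsin alone, azacitidine alone at 50, 125, 250 or 500 nM, and romidepsin with azacitidine at 50, 125, 250 or 500 nM. PF382 and TLOm1 received azacitidine at 125, 250 and 500 nM, and HH and H9 at 50, 125 and 250 nM, so that 125 and 250 nM were given to 4 of 4 lines. TLOm1 and H9 received 1 nM romidepsin and PF382 received 1.25 nM, while the labels of HH give 1 nM alone and 1.25 nM beside azacitidine. The lines are the replicates of a group (n = 4, or n = 2 at 50 and 500 nM), and the spread between cultures of a line was not measured. The spread behind each p-value was pooled over 32 libraries, and those of a line were counted as independent.

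Total counts ran from 16175077 to 32496676 per library. A floor of 3 counts was 0.131 CPM (counts scaled to a common library total) in untreated PF382. Of 10 T-cell markers, CD3E (a chain of the T-cell receptor complex) was present in 32 of 32 libraries, at 30.2 to 663 CPM. TLOm1 held CD3D at 0 to 0.731 CPM and the kinase LCK at 0 to 1.53 CPM. LCK was also at 0 to 1.03 CPM in HH, and CD2 was at 0.272 to 0.656 CPM in H9, so the lines differed in how many T-cell markers they kept. In RNA from bulk cultures, a change in the number of expressing cells and a change in RNA per cell cannot be told apart.

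Promoter sequence is available for 6 of the 9 genes, as 7 starts, from RefSeq on GRCh38.p14, and CTAG1A, CTAG1B and CTAG2 have none in that table. The 150 bases before the start are shown, for the 5 genes with a promoter entry that could be tested, 5′ to 3′ on the gene's strand, with CpG dinucleotides (CG, which reads the same on both strands) in capitals, because these sites are the substrate of the methyltransferases that azacitidine traps. Both starts of MAGEB1 are given, since they differ in CpG content, and LAGE3, a relative of CTAG2 that somatic cells use, is given beside them.
MAGEB1 upstream start, chrX:30243581-30243730, plus strand: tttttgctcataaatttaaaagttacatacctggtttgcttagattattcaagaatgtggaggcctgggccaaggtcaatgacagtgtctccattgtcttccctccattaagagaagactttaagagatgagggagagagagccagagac
MAGEB1 downstream start, chrX:30246996-30247145, plus strand: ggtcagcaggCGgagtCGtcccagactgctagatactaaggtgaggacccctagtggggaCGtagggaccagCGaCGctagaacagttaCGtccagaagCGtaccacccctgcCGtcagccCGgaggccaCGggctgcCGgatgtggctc
MAGEB2, chrX:30215413-30215562, plus strand: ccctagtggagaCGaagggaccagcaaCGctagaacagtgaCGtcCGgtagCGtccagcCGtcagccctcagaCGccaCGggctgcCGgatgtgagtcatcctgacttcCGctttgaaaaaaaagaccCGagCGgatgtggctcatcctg
MAGEB6, chrX:26192290-26192439, plus strand: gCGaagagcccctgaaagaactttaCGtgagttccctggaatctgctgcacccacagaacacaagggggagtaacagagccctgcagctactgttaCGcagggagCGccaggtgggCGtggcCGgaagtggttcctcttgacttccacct
MAGEC1, chrX:141903744-141903893, plus strand: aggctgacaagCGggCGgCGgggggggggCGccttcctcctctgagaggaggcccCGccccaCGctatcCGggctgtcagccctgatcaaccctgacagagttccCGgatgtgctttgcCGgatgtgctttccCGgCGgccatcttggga
MAGEC2, chrX:142205291-142205440, minus strand: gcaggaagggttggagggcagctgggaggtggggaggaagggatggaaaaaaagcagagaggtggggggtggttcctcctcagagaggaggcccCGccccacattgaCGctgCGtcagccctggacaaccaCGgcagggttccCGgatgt
LAGE3, chrX:154479282-154479431, minus strand: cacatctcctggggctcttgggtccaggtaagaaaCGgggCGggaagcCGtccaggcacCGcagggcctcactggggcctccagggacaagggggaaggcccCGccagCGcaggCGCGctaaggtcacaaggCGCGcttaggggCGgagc
Over 300 bases (250 before to 50 after the start), the CpG count was 1 at the upstream start of MAGEB1 and 18 at its downstream start. It was 21 at MAGEB2, 11 at MAGEB6, 14 at MAGEC1, 10 at MAGEC2 and 5 at MAGEC3, and 22 at LAGE3. The median over the 35116 promoters of the table was 14, with quartiles of 4 and 28, so 6 of the 7 antigen gene starts lay between the quartiles and the upstream MAGEB1 start lay below them. Counts per gene do not tell which MAGEB1 start was used. No CpG methylation was measured here.

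The antigen promoters share short runs of sequence within the 250 bases before the start. Of the 3 given here only the shortest lies wholly inside the printed windows. The downstream MAGEB1 start and MAGEB2 have in common the 24 bases gaggctggCGgatttgggtcagca, held by 2 promoters of the table. Their aligned 250 bases before the start were 58.7% identical. MAGEC1 and MAGEC2 share the 20 bases aaggactggggaggtgggag, also held by 2 promoters. The 11 bases tgcCGgatgtg occur at MAGEB1 (downstream start), MAGEB2 and MAGEC1, and in 6 promoters of the table. The letters CCGGAA, a form of the core that ETS family factors bind, were searched over the 300 bases on both strands (TTCCGG on the other). Other forms of the core were not searched, and the CCGGAT inside the 11 shared bases was not counted. CCGGAA was found once, at MAGEB6, against 17.2% of promoters in the table that hold it. A match describes letters and not a site in use.

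Without azacitidine, most of these genes had few or no counts, and each of the 2 exceptions belonged to 1 line. Untreated H9 held MAGEB1 at 905 counts (34.7 CPM) and untreated TLOm1 held MAGEB2 at 1722 counts (70 CPM). Per kilobase of exon, which allows levels of different genes to be compared, MAGEB2 in untreated TLOm1 was at 43.5 CPM per kb and MAGEB1 in untreated H9 at 17.6 CPM per kb. HH came next with MAGEB1 at 23 counts (0.48 CPM per kb) and MAGEB2 at 4 counts. In the 8 libraries without azacitidine, MAGEB6 summed to 3 counts, MAGEC1 to 3, MAGEC3 to 2, CTAG2 to 1, and MAGEC2, CTAG1A and CTAG1B to 0. Apart from the 2 exceptions and MAGEB1 in HH, no library without azacitidine had more than 4 counts of any of the 9 genes.

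**Figure D1:**
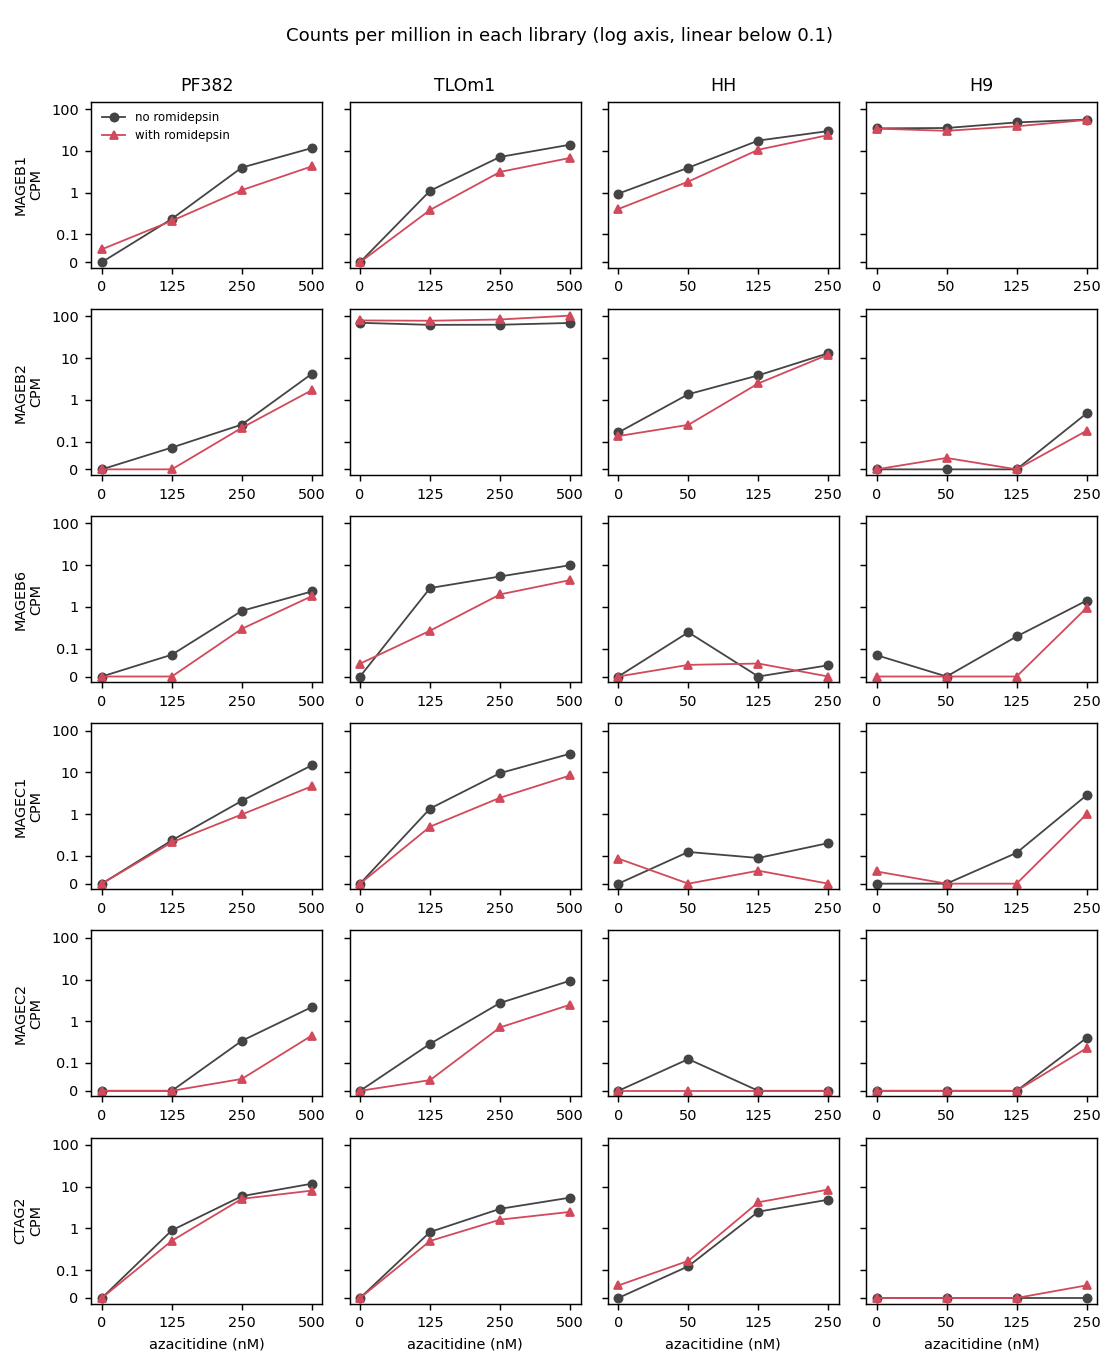
CPM of MAGEB1, MAGEB2, MAGEB6, MAGEC1, MAGEC2 and CTAG2 (rows) in 4 lines (columns) against the azacitidine dose in nM, 1 point per library, without romidepsin (dark circles) and with it (red triangles); the vertical axis is logarithmic above 0.1 CPM and linear below. MAGEB2 in TLOm1 and MAGEB1 in H9 lie high and nearly level at every dose, most other panels start near 0 and climb with dose, and CTAG2 in H9 stays at or near 0.

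MAGEB1 had counts in 24 of 24 libraries with azacitidine, more than any other of the 9 genes. In PF382 its counts were 0 untreated, 1 with romidepsin, 6, 94 and 293 at azacitidine 125, 250 and 500 nM, and 5, 27 and 103 when romidepsin was added to those doses. In TLOm1 the same order gave 0, 0, 27, 175 and 332, and 10, 66 and 131. Both lines thus went from no signal to 11.7 CPM (PF382) and 14.1 CPM (TLOm1) at 500 nM, at least 89.3-fold and at least 116-fold above a floor of 3 counts in the untreated library. In HH, counts were 23 untreated, 9 with romidepsin, 64, 574 and 741 at 50, 125 and 250 nM, and 44, 229 and 533 with romidepsin added. H9, where the gene was already on, gave 905, 781, 1042, 1229 and 1548, and 739, 1087 and 1219. At 250 nM the ratio to untreated cells was 31.6 in HH (95% counting interval 20.9 to 50.1) and 1.62 in H9 (1.49 to 1.76), so the line with the highest starting level had the smallest ratio.

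MAGEB2, which lies in one gene cluster with MAGEB1, had its highest levels in TLOm1 whatever the treatment. TLOm1 gave 1722 counts untreated, 1727 with romidepsin, 1520, 1533 and 1635 at azacitidine 125, 250 and 500 nM, and 2035, 1768 and 2016 with both drugs. The level there stayed between 62.5 and 104 CPM, and at 500 nM the ratio to untreated cells was 0.991 (0.926 to 1.06). HH gave 4, 3, 22, 125 and 326 counts, and 6, 53 and 270 with both drugs, a ratio of 79.9 (30.9 to 295) at 250 nM. PF382 stayed under 10 counts except at 500 nM, with 105 alone and 41 with romidepsin. H9 reached 13 counts at 250 nM and 4 with romidepsin added, and held 0 or 1 count in its 6 other libraries. The same dose of 250 nM therefore went with a high level in HH, a few counts in PF382 and H9, and no higher level in TLOm1.

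MAGEB6 was almost restricted to TLOm1, PF382 and H9, and HH gave at most 4 counts in any library. TLOm1 had 0 counts untreated, 1 with romidepsin, 69, 131 and 236 with azacitidine and 7, 42 and 85 with both drugs. PF382 had 0, 0, 2, 19 and 59, and 0, 7 and 44. H9 had 2, 0, 0, 5 and 39, and 0, 0 and 21, so that 10 or more counts were reached there only at 250 nM. MAGEB6 reached 10 counts at 125 nM in TLOm1, at 250 nM in PF382 and H9, and at no dose in HH.

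MAGEC1, an antigen often found in multiple myeloma, followed a similar order of lines. TLOm1 had 0, 0, 33, 234 and 659 counts, and 13, 52 and 163 with both drugs, a peak of 28 CPM that was at least 229-fold above the floor. PF382 had 0, 0, 6, 49 and 370, and 5, 23 and 112. H9 had 0, 1, 0, 3 and 78, and 0, 0 and 22, which again placed the signal at 250 nM. HH had 0, 2, 2, 3 and 5 counts, and 0, 1 and 0, which is at or near the floor. MAGEB6 and MAGEC1 were thus low in HH, the line in which MAGEB1, MAGEB2 and CTAG2 were high with azacitidine.

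MAGEC2, which binds the corepressor TRIM28 and stimulates its ubiquitin ligase activity, had the fewest counts of the 6 genes that could be tested. TLOm1 gave 0, 0, 7, 67 and 221, and 1, 15 and 48 with both drugs. PF382 gave 0, 0, 0, 8 and 55, and 0, 1 and 11, while H9 gave 11 counts at 250 nM, 5 with romidepsin added and 0 elsewhere. HH gave 2 counts, at 50 nM, and 0 in its 7 other libraries. MAGEC3, the third gene of the MAGE-C cluster, summed to 22 counts over 32 libraries and reached at most 7, in TLOm1 with both drugs at 500 nM. It failed the filter on low counts and was not tested.

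CTAG2, which encodes LAGE-1, a close relative of NY-ESO-1, was at 0 or 1 count in 8 of 8 libraries without azacitidine. PF382 had 0 counts untreated and with romidepsin, 23, 140 and 295 with azacitidine, and 12, 120 and 194 with both drugs. TLOm1 had 0, 0, 20, 72 and 129, and 13, 34 and 48. HH had 0, 1, 2, 82 and 121, and 4, 91 and 190, the one line in which the counts with both drugs were higher. H9 had 0 counts in 7 libraries and 1 count with both drugs at 250 nM, where 3 counts would be 0.136 CPM. CTAG2 was thus not detectable at this depth in H9 with azacitidine at 250 nM, a dose at which the same libraries held MAGEC1 and MAGEB6.

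The 2 genes of NY-ESO-1 itself gave almost no counts: CTAG1A had 1 count in all, in TLOm1 at azacitidine 500 nM, and CTAG1B had 0. These values are uncertain, because the annotated transcripts of CTAG1A and CTAG1B that were compared are identical over 748 of 748 bases (GENCODE 29, GRCh38), and reads that fit both copies may not have been counted for either. CTAG1B and CTAG2 are 94.5% identical over the same length, so some reads of one may stand under the other. How the counter treated reads with more than 1 location is not given in the sources used here. MAGEB1 and MAGEB2 were 71.0% identical, and MAGEC2 and MAGEC3 54.9%.

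Per kilobase of exon, the genes that came on with azacitidine reached similar levels in TLOm1. At 500 nM they stood at 7.15 (MAGEB1), 6.55 (MAGEC1), 5.51 (CTAG2), 5.14 (MAGEB6) and 4.71 CPM per kb (MAGEC2). In PF382 at 500 nM the order was CTAG2 at 11.8, MAGEB1 at 5.93, MAGEC1 at 3.46, MAGEB2 at 2.6, MAGEB6 at 1.21 and MAGEC2 at 1.1 CPM per kb. In HH at 250 nM, MAGEB1 stood at 15.2, MAGEB2 at 8.16 and CTAG2 at 4.91 CPM per kb. With 1 library per condition, these orders have no replicate spread and are given as values only. None of these levels came up to that of MAGEB2 in untreated TLOm1.

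Azacitidine alone raised 5 of the 6 tested genes at 250 nM, and CTAG2 already at 125 nM. All tests of this kind were edgeR quasi-likelihood tests over 17801 symbols with Benjamini-Hochberg adjustment and cell line as a term. At 125 nM, 1 of 6 genes was called higher, against 0.365% of all tested genes: CTAG2, with 125 counts over 4 lines against 0 untreated, at least 37.8-fold higher (adjusted p = 0.000822). At 125 nM, 4 other genes had an unadjusted p under 0.05. At 250 nM, 5 of 6 were called higher, against 3.85% of all tested genes. MAGEB1 rose by a log2 change of 3.87 ± 0.84 (SE, n = 4, adjusted p = 0.00845), and its CPM was higher in 4 of 4 lines.

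The other 4 genes called at 250 nM had 0 to 2 untreated counts, so their changes are given as counts over 4 lines. CTAG2 had 333 counts against 0, at least 108-fold higher (edgeR adjusted p = 2.5e-06, 3 of 4 lines). MAGEC1 had 366 against 0, at least 119-fold higher (adjusted p = 0.000215, 4 of 4 lines, with HH near the floor at 5 counts against 0). MAGEC2 had 86 against 0, at least 28-fold higher (adjusted p = 0.00321, 3 of 4 lines). MAGEB6 had 190 against 2, a ratio of 92.8 (counting interval 25.3 to 772), with an edgeR adjusted p of 0.00389. It was higher in 4 of 4 lines, but HH had only 1 count against 0, which is under the floor of 3 counts. MAGEB2 had a log2 difference of 1.81 ± 0.98 (SE) with an adjusted p of 0.297, and it was higher in 3 of 4 lines. MAGEB6, MAGEC1, MAGEC2 and CTAG2 had 10 counts in 0 of 8 libraries without azacitidine, so they passed the filter on low counts only through libraries in which they were high, and 5 of 6 is not a share of all 9 members.

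These calls leaned on single lines. Without TLOm1, MAGEB2 was called at 250 nM (log2 change 6.54, adjusted p = 0.00038 by edgeR), while MAGEB1 (0.102), MAGEB6 (0.108) and MAGEC2 (0.239) were not. Without PF382 the adjusted p of MAGEB1 was 0.0788, and without HH it was 0.0662. With every line kept, limma did not call MAGEB1 for azacitidine at 250 nM (log2 difference 2.26 ± 1.09, SE, adjusted p = 0.219). CTAG2 and MAGEC1 were called at 250 nM whichever line was left out. With the 2 compared groups alone in the fit, none of the 5 genes then tested was called (the smallest adjusted p was 0.0771, for MAGEB6). With cell line left out of the model none of 6 was called either. At 125 nM the count was 2 of 6 without TLOm1 and 2 of 6 without H9.

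The dose response was tested within lines, as a slope in log2 units for each doubling of the dose, from libraries that received the drug. Without romidepsin, 5 of 6 genes were called with a rising slope, against 4.43% of all tested genes. The slope was 2.45 ± 0.29 log2 units per doubling for MAGEC1 (SE, edgeR adjusted p = 1.09e-05), 2.43 ± 0.37 for MAGEC2 (0.000355), 1.82 ± 0.24 for CTAG2 (4.24e-05), 1.50 ± 0.28 for MAGEB1 (0.00157) and 1.38 ± 0.33 for MAGEB6 (0.0101). MAGEB2 had a slope of 1.17 ± 0.43 with an adjusted p of 0.0921. Without TLOm1, where it was high at every dose, its slope was 2.10 with an adjusted p of 4.45e-05 by edgeR. The slope of MAGEB6 was not called without PF382 (1.20, adjusted p = 0.0772), without TLOm1 (1.80, 0.0599) or without H9 (0.99, 0.132). A slope above 1 means that the level more than kept pace with the dose, and 6 of 6 estimates over the 4 lines lay above 1. Slopes were tested against 0 and not against 1, and that of MAGEB2 lay within 1 SE of 1. Single lines could rise less: MAGEB1 in H9 went from 35.4 CPM at 50 nM to 56.2 CPM at 250 nM.

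With romidepsin present, the same 5 genes were called with a rising slope, against 13.4% of all tested genes. MAGEC2 had 2.42 ± 0.46 (SE, edgeR adjusted p = 0.00139), MAGEC1 2.26 ± 0.31 (5.29e-05), MAGEB6 2.18 ± 0.42 (0.00104), CTAG2 1.52 ± 0.26 (0.000418) and MAGEB1 1.25 ± 0.29 (0.00401). MAGEB2 had 1.09 ± 0.44 (adjusted p = 0.0703). Without TLOm1, MAGEB2 was called (2.28, adjusted p = 0.000102) and MAGEB1 was not (1.04, 0.0556), and limma did not call MAGEB1 over 4 lines (0.0639). None of the 6 was called for a difference between the slopes with and without romidepsin, by edgeR or limma, and none had an unadjusted p under 0.05, against 0.0112% of all tested genes called. A p that misses the threshold does not show equal slopes.

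**Figure D2:**
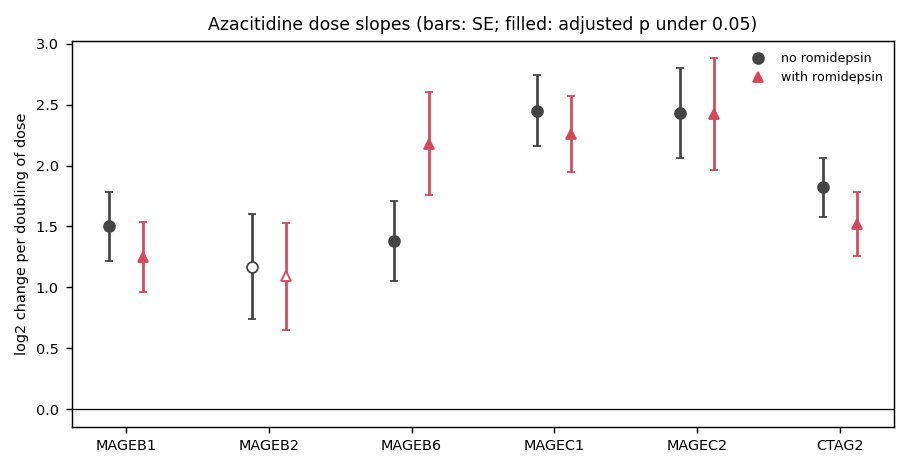
Slope of the log2 level for each doubling of azacitidine, for 6 genes (horizontal axis), without romidepsin (circles) and with it (triangles); bars are standard errors and filled symbols have an adjusted p under 0.05. The slopes run from 1.09 to 2.45, the 5 genes other than MAGEB2 are filled in both settings, and the pairs of symbols lie within their errors of each other or close to it.

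Tested line by line (6 libraries with azacitidine at any dose against 2 without), TLOm1 gave the most calls. There 4 of 6 genes were called higher, against 11% of all tested genes: MAGEB1 (edgeR adjusted p = 0.0318), MAGEB6 (0.0312), MAGEC1 (0.0323) and CTAG2 (0.0436). In PF382, 1 of 6 was called, against 5.94%: CTAG2 (0.0312), while 4 had an unadjusted p under 0.05. In HH none of 6 was called, against 4.07%, and 3 had an unadjusted p under 0.05: MAGEB1 (log2 difference 4.43 ± 1.37, adjusted p = 0.0579), MAGEB2 (5.15 ± 1.64, 0.0661) and CTAG2 (0.0699). In H9 none of 6 was called, against 2.81%, and none had an unadjusted p under 0.05. By limma the counts called were 0 in PF382, 1 in TLOm1, 0 in HH and 0 in H9, and with only the libraries without romidepsin in the fit they were 0 in PF382 and TLOm1.

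Whether the azacitidine effect was equal in the 4 lines was tested directly. None of 6 genes was called unequal, against 10.7% of all tested genes, although MAGEB1 (adjusted p = 0.0752) and MAGEB2 (0.15) had an unadjusted p under 0.05, and limma called 0 as well. For genes at or near 0 without azacitidine this test cannot decide, because their line effects had wide errors. CTAG2 in H9 had 1.13 ± 4.48 log2 units (SE), although its counts at azacitidine 250 nM were 140 in PF382 and 0 in H9. At 125 and 250 nM alone, doses that the lines share, MAGEB1 (0.0486) and MAGEB2 (0.0351) were called unequal by edgeR. In that same fit HH gave 3 calls: MAGEB1 (0.00631), MAGEB2 (0.00532) and CTAG2 (0.0204). That fit leaves out the 50 nM libraries of HH and H9 and the 500 nM libraries of PF382 and TLOm1 together.

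Romidepsin alone brought on none of these genes. In the 4 lines, MAGEB1 counts were 1, 0, 9 and 781 against 0, 0, 23 and 905 untreated (PF382, TLOm1, HH and H9), and CTAG2 counts were 0, 0, 1 and 0 against 0 in each. None of 6 genes was called higher, against 0.0169% of all tested genes, by edgeR, DESeq2 or limma, and none had an unadjusted p under 0.05. MAGEC2 was at 0 in all 8 libraries of the comparison. For genes near 0 in both groups the comparison bears only on levels above the floor.

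With both drugs, levels rose above untreated cells for the same 5 genes as with azacitidine alone. At 125 nM, 1 of 6 was called higher, against 4.4% of all tested genes: CTAG2, with 116 counts against 0, at least 38.2-fold higher (edgeR adjusted p = 0.000209). At 250 nM, 5 of 6 were called higher, against 14.2%. CTAG2 had 345 counts against 0, at least 127-fold higher (adjusted p = 1.18e-06), MAGEC1 97 against 0, at least 35.6-fold (0.000921), and MAGEC2 21 against 0, at least 7.71-fold (0.0123). MAGEB6 had 70 counts against 2 (adjusted p = 0.00803), and MAGEB1 rose by 2.82 ± 0.83 log2 units (SE, 0.0178). MAGEB2 had a log2 difference of 1.67 ± 0.96 (0.218). Without TLOm1 the 3 genes called at 250 nM were MAGEB2 (6.06, adjusted p = 0.000187), MAGEC1 and CTAG2, while MAGEB1 (0.108), MAGEB6 (0.122) and MAGEC2 (0.307) were not called. MAGEB1 was also not called without PF382 (0.0863), without HH (0.143) or by limma (0.205), and MAGEC2 was not called by DESeq2 (0.105). At 125 nM the count was 2 of 6 without TLOm1 (CTAG2 and MAGEB2) or without H9 (CTAG2 and MAGEB1).

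Against romidepsin alone, the combination at 250 nM was higher for 5 of 6 genes, against 8.92% of all tested genes. MAGEB1 rose by 2.88 ± 0.84 log2 units (SE, edgeR adjusted p = 0.0254), and CTAG2 had 345 counts against 1 (4.38e-06). The adjusted p was 0.00931 for MAGEB6, 0.00696 for MAGEC1 and 0.0218 for MAGEC2. The count was 2 of 6 without PF382 and 2 of 6 without TLOm1, where MAGEB2 was one of the 2 (0.0005), and 4 of 6 without HH. The same 5 genes were thus higher with both drugs than with either reference that lacked azacitidine.

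Adding romidepsin to azacitidine went with lower levels of most of these genes, and this was seen pair by pair. The 12 pairs set the combination beside azacitidine alone in the same line at the same dose, and pairs in which neither library had 3 counts were left out. MAGEB1 was lower with romidepsin in 12 of 12 pairs, with CPM ratios of 0.289 to 0.981 (median 0.543), and the 95% counting interval lay below 1 in 10 of them. Of all tested genes, 2.4% were lower in 12 of 12 pairs. MAGEC1 was lower in 10 of 10 pairs, MAGEB6 in 8 of 8 and MAGEC2 in 6 of 6. The counting interval lay below 1 in 6 of the MAGEC1 pairs, 5 of the MAGEB6 pairs and 4 of the MAGEC2 pairs. Some of the others were near the floor, such as MAGEC1 in HH at 250 nM, with 0 counts against 5. For pairs kept by 3 counts, the share over all tested genes was not computed.

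The median pair ratio was lowest for MAGEC2 (0.233) and MAGEC1 (0.333), followed by MAGEB6 (0.371). Summed over the 3 doses, MAGEC2 in TLOm1 had 64 counts with both drugs against 295 with azacitidine, a ratio of 0.236 (0.178 to 0.311), and in PF382 12 against 63, a ratio of 0.198 (0.0973 to 0.371). MAGEC1 had ratios of 0.268 (0.231 to 0.311) in TLOm1, 0.343 (0.281 to 0.416) in PF382 and 0.301 (0.179 to 0.487) in H9. MAGEB1 had ratios of 0.358 in PF382, 0.423 in TLOm1, 0.635 in HH and 0.883 in H9, so the ratio was lowest in the lines with 0 untreated counts and nearest to 1 in H9. These intervals cover counting error only, and not the spread between cultures, which was not measured. The reads carry no molecular identifiers, so the counts are of reads and not of molecules.

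MAGEB2 and CTAG2 went both ways. MAGEB2 was lower in 6 pairs and higher in 3, and the 3 were those of TLOm1, with ratios of 1.25, 1.34 and 1.51. CTAG2 was lower in 6 pairs, those of PF382 and TLOm1, and higher in 3, those of HH, with ratios of 1.35, 1.68 and 1.75. Summed over doses, CTAG2 had 285 counts with both drugs against 205 with azacitidine in HH, a ratio of 1.51 (1.26 to 1.82), and 95 against 221 in TLOm1, a ratio of 0.469 (0.364 to 0.599). The counts of pairs in each direction were the same when CPM was scaled by TMM factors.

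**Figure D3:**
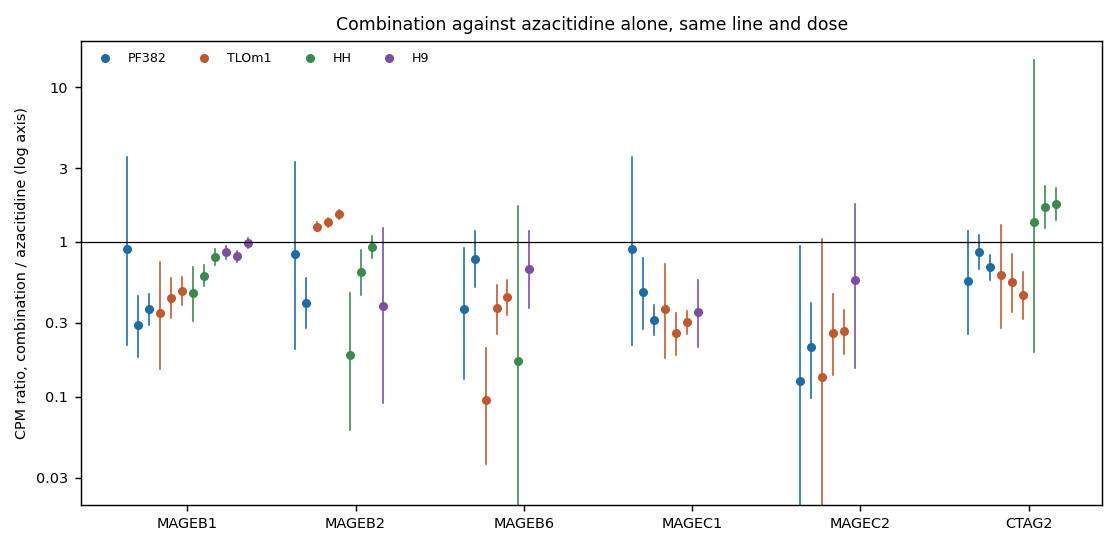
Ratio of CPM in the combination to azacitidine alone at the same dose and line, for 6 genes, on a logarithmic axis; each point is a pair of libraries coloured by line, with its 95% counting interval drawn up to the limits of 0.02 and 20. Pairs without 3 counts in either library or with 0 counts in the combination are not drawn. MAGEB1 lies below 1 in every pair, MAGEC2 has the lowest median (0.233), and the points above 1 are MAGEB2 in TLOm1 and CTAG2 in HH.

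Within each line, 4 libraries with romidepsin were tested against 4 without, matched on azacitidine dose. In PF382, 4 of 6 genes were called lower, against 11.6% of all tested genes. MAGEC2 fell by 2.35 ± 0.49 log2 units (SE, edgeR adjusted p = 0.00351), MAGEB1 by 1.50 ± 0.20 (1.39e-05), MAGEC1 by 1.40 ± 0.33 (0.00333) and MAGEB2 by 1.25 ± 0.36 (0.0148). MAGEB6 (log2 difference -0.78 ± 0.53, adjusted p = 0.288) and CTAG2 (-0.49 ± 0.19, 0.0638) were not called. CTAG2 in PF382 was called lower by limma (adjusted p = 0.016) and by edgeR on the libraries with azacitidine alone (-0.50, 0.0364), a fit chosen after seeing the data.

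In TLOm1, 5 of 6 genes were called lower, against 15.5% of all tested genes, and 1 of 6 was called higher, against 17.1%. MAGEC2 fell by 2.03 ± 0.32 log2 units (SE, edgeR adjusted p = 0.000559), MAGEC1 by 1.82 ± 0.28 (9.59e-05), MAGEB6 by 1.71 ± 0.37 (0.00208), MAGEB1 by 1.21 ± 0.18 (4.74e-05) and CTAG2 by 1.01 ± 0.22 (0.00235). MAGEB2, the gene that was already on in this line, rose by 0.34 ± 0.12 (0.0416). The genes that azacitidine brought on and the gene that was on before it thus moved in opposite directions in the same libraries.

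In HH, 1 of 6 was called lower, against 13.7%, and 1 of 6 higher, against 14%: MAGEB1 fell by 0.66 ± 0.14 log2 units (SE, edgeR adjusted p = 0.00156) and CTAG2 rose by 0.77 ± 0.21 (0.0125). In HH the labels give unequal romidepsin doses alone and in the combinations, so the match there is not of equal doses. In H9 none of 6 was called lower by edgeR or limma, against 0.831% of all tested genes, and 1 had an unadjusted p under 0.05: MAGEC1 (log2 difference -1.51 ± 0.52, adjusted p = 0.118). MAGEB1 in H9 differed by -0.16 ± 0.11 (0.47).

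The 4 line effects of romidepsin were unequal for 3 of 6 genes, against 33% of all tested genes. These were MAGEB1 (edgeR adjusted p = 0.000321), CTAG2 (0.00158) and MAGEB2 (0.0063). MAGEB1 differed in size across lines, from -1.50 in PF382 to -0.16 in H9, while CTAG2 and MAGEB2 also differed in sign. The share of all genes called unequal is high, so 3 of 6 is not far from what other genes show.

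**Figure D4:**
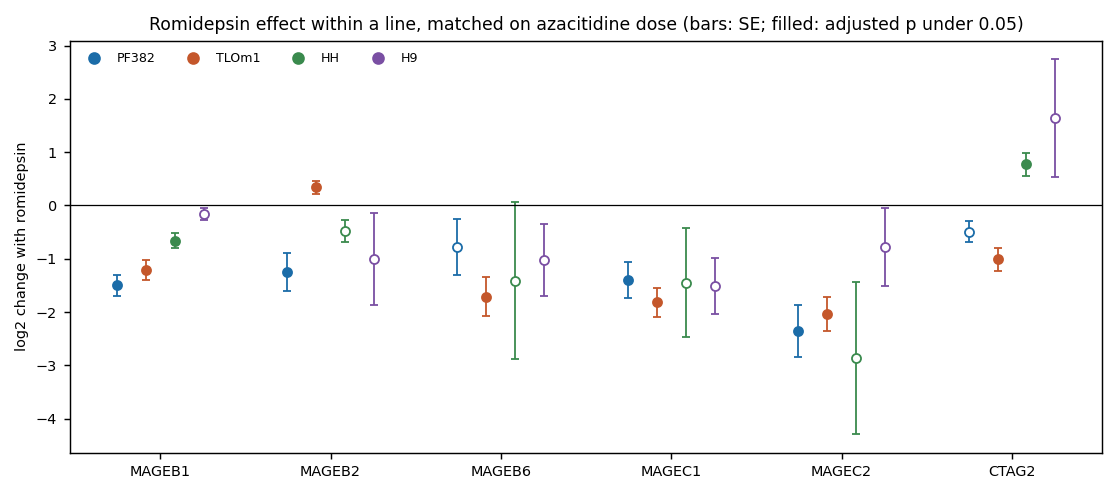
Log2 change with romidepsin within each line, matched on azacitidine dose (4 libraries against 4), for 6 genes; bars are standard errors, colours are lines and filled symbols have an adjusted p under 0.05. The PF382 and TLOm1 points lie between -2.35 and -0.49 except MAGEB2 in TLOm1 at 0.34, and CTAG2 in HH lies above 0 at 0.77.

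Over the 4 lines together, the lower level with romidepsin did not pass. For the combination against azacitidine at 250 nM, none of 6 genes was called lower by edgeR, DESeq2 or limma, against 2.24% of all tested genes, and 2 had an unadjusted p under 0.05. These were MAGEC1 (log2 difference -1.61 ± 0.59, SE, edgeR adjusted p = 0.11) and MAGEC2 (-1.66 ± 0.68, 0.166). MAGEB1 (-1.05 ± 0.72, 0.415) and MAGEB6 (-1.08 ± 0.71, 0.394) had negative estimates too, and CTAG2 had -0.13 ± 0.38 (0.881). None of 6 was called for a departure from additivity, where the log2 changes of both single drugs are summed, by these tools. None had an unadjusted p under 0.05, against 0% of all tested genes called. The SE of the departure was 9.36 for MAGEB6 and 10597.18 for MAGEC2, which were at or near 0 without azacitidine. For these genes the test cannot decide. The fit over lines counts the differences between lines as spread, which the fit within lines does not.

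Relatives of these genes were described for comparison, from lists chosen with earlier results known. Of 13 MAGE-A genes, 8 were tested and 7 were called higher with azacitidine at 250 nM, against 3.85% of all tested genes. Of the 8, 6 had 0 counts in every untreated library. No MAGE-A gene had 10 counts in a library without azacitidine. They thus passed the filter only through libraries with azacitidine, and 7 of 8 is not a share of all 13. The 4 with the largest fitted changes were MAGEA1 (edgeR adjusted p = 9.55e-06), MAGEA3 (0.000133), MAGEA12 (0.000193) and MAGEA6 (0.000799). Of 7 other MAGE-B genes, 5 were tested and 2 were called higher, against the same 3.85%: MAGEB17 (edgeR adjusted p = 0.021) and MAGEB3 (0.0294). Among the 5, 2 had 0 counts in every untreated library. MAGEB4, which lies between MAGEB3 and MAGEB1, had 11 to 45 counts in HH without azacitidine and 9 to 47 with it, and at most 1 count in any library of the other 3 lines. MAGE-A reads may be split between near-identical copies, so single MAGE-A values are uncertain.

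MAGE genes that somatic tissues use gave no call with azacitidine alone. Of 12 such genes in the data, 10 were tested and none was called with azacitidine at 250 nM, with a median log2 change of 0.03. Of all tested genes, 3.85% were called higher and 2.14% lower, so no call among 10 is near what other genes show. With both drugs at 250 nM, 2 of 10 were called higher, against 14.2% of all tested genes: MAGEL2 (edgeR adjusted p = 0.0245) and TRO (log2 change 0.78 ± 0.24, 0.0237). LAGE3, a subunit of the KEOPS complex that modifies transfer RNA, was at 15.4 to 47 CPM without azacitidine and 20.3 to 67.6 CPM with it. It rose at 250 nM by 0.42 ± 0.09 log2 units (0.00623), a fold of 1.34, beside at least 108-fold for CTAG2. The difference between the lists was not tested.

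Neighbouring genes on the X chromosome were read in the same fits. Of 16 neighbours in the list, 8 were tested and none was called with azacitidine at 250 nM, with a median log2 change of 0.17. Of all tested genes, 3.85% were called higher and 2.14% lower, so no call among 8 is near what other genes show. Beside CTAG2, IKBKG had a log2 difference of 0.28 ± 0.08 (edgeR adjusted p = 0.0525), GAB3 0.25 ± 0.28 (0.659) and DKC1 0.08 ± 0.09 (0.657). GK, a glycerol kinase gene near MAGEB1, had -0.04 ± 0.20 (0.939).

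Of 20 genes for enzymes and factors that act on such promoters, 3 were called higher with azacitidine at 250 nM and 1 lower, against 3.85% of all tested genes called higher and 2.14% called lower. CTCFL, the testis paralogue of the insulator protein CTCF and itself a cancer testis gene, rose from 0 to 2 counts per library without azacitidine to as many as 446 (edgeR adjusted p = 4.88e-05). UHRF1, which guides DNMT1 to newly copied DNA, rose by 0.48 ± 0.13 log2 units (0.0271), and TRIM28 by 0.23 ± 0.06 (0.0301). KDM5B, a demethylase of histone H3, fell by 1.15 ± 0.34 (0.0435). DNMT1, a main target of azacitidine, had a log2 difference of 0.17 ± 0.07 (0.138) in its RNA. With both drugs 5 of 20 were called higher and 4 lower, against 14.2% of all tested genes called higher and 8.76% called lower.

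Markers of other cell types were read in the same libraries. With azacitidine at 250 nM, 3.85% of all tested genes were called higher and 2.14% lower. Of 9 germ cell genes, 2 were tested and none was called at 250 nM, and PRM1, TNP1 and TNP2 were at 0 in 32 of 32 libraries. Their summed level ran from 0.721 to 8.88 CPM without azacitidine and from 0.744 to 9.75 CPM with it. Of 5 epithelial markers, 4 were tested and 2 were called higher: KRT8 (3.11 ± 0.46, edgeR adjusted p = 0.000275) and KRT18 (3.03 ± 0.56, 0.00223). Their summed level ran from 0.405 to 103 CPM without azacitidine and from 0.628 to 220 CPM with it, and its part in the antigen result was not tested. Of 6 fibroblast, 6 B-cell and 3 tested melanocyte markers none was called, and of 4 tested myeloid markers 1 was called higher (MPO, adjusted p = 0.0123). Without and with azacitidine, the summed level was 0.823 to 87.2 and 0.8 to 79.6 CPM for fibroblast, 0.647 to 87.6 and 0.574 to 94.5 CPM for B-cell, 0.805 to 4.16 and 0.942 to 39 CPM for melanocyte and 0.153 to 7.16 and 0.218 to 11.8 CPM for myeloid markers. These sums with azacitidine include the libraries with both drugs. Within PF382, the fibroblast sum was 7.81 to 10.4 CPM without azacitidine, 6.5 to 7.38 CPM with azacitidine alone and 24.4 to 63 CPM with both drugs. The B-cell sum there was 10.6 to 11.8, 19.7 to 23 and 26.3 to 32.9 CPM in the same order. Within H9 the fibroblast sum was 3.99 to 5.08, 9.65 to 21.6 and 8.85 to 16.7 CPM. The melanocyte peak of 39 CPM was in PF382 with both drugs at 500 nM, where azacitidine alone gave at most 5.01 CPM at any dose. With both drugs at 250 nM, 2 fibroblast, 2 B-cell, 2 epithelial, 1 myeloid and 1 melanocyte marker were called higher. Of all tested genes, 14.2% were called higher there and 8.76% lower. Of 10 T-cell markers, 1 was called lower with azacitidine (PTPRC, which encodes CD45, by 0.70 ± 0.17, adjusted p = 0.0137) and 1 with both drugs (CD3E, by 0.36 ± 0.09, 0.00881). The part of these markers in the antigen result was not tested.

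The genes whose pattern over the 32 libraries was most like each member were found by Pearson r of log2(CPM + 0.5), scaled by TMM. These values describe 32 libraries that share 4 lines and the dose series. CTAG2 was most like PNMA5 (r = 0.96), PIWIL2 (0.956), MAGEA1 (0.933), CTCFL (0.923) and LOC731789 (0.908). PIWIL2 binds small RNAs that silence transposons in germ cells. MAGEC2 was most like VCX (0.968), LOC100129520 (0.966), VCX2 (0.938), VCX3B (0.932) and RPL10L (0.928), a testis copy of a ribosomal protein gene. MAGEC1 was most like LOC100129520 (0.964), VCX (0.908), NPFFR2 (0.904), CXorf67 (0.904) and CT45A5 (0.893), and MAGEB6 like LOC100129520 (0.927), MAGEA10 (0.915), TKTL2 (0.902), CT45A5 (0.896) and LOC400643 (0.885). VCX and CT45 genes have near-identical copies, so their counts are uncertain.

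For the 2 genes that were on in 1 line, the likeness followed the line. MAGEB2 was most like CES4A (0.967), FAM50B (0.966), TP73-AS1 (0.963), CD86 (0.96) and PTPN21 (0.948), and MAGEB1 like TNFRSF10D (0.894), CSNK1D (0.891), RELA (0.889), MIR762 (0.887) and RHPN2 (0.886). TP73-AS1 is an antisense gene, whose reads cannot be told apart from those of its partner where strand was not used. After values were centred within lines, 0 of these 5 stayed among the top 5 for either gene, while 4 of 5 stayed for MAGEB6, MAGEC2 and CTAG2 and 2 of 5 for MAGEC1. Among the members, MAGEB6 and MAGEC1 had r = 0.952 and MAGEC1 and MAGEC2 had r = 0.941. CTAG2 and MAGEB1 had r = 0.119 over all libraries and 0.931 after centring, so their doses moved together within lines although their levels between lines did not.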

How the data were processed

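RNA from 32 cultures was sequenced, and the whole-number counts per gene symbol were used as the authors deposited them, 1 table per library. The submitters' processing notes name STAR, DESeq2, limma and the build GRCh37.p2; for the counter, its annotation and its use of strand, the sources used here give nothing. The labels name both a poly(A)-based kit and removal of ribosomal RNA, so the selection of RNA is uncertain. Counts were not altered; CPM is relative to the library total.

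Tests used edgeR 4.0.16 in R 4.3.3 (TMM, filterByExpr with a minimum count of 10 and a minimum total of 15, robust quasi-likelihood F test, Benjamini-Hochberg threshold 0.05 over 17801 symbols). Libraries were paired by cell line, taken from the labels, and cell line was a term in every model. DESeq2 1.42.0, limma 3.58.1 (voom), other scaling, filters and subsets of libraries served as alternatives. Simulated counts were used only for the model that compares treatment groups, and the outcome is not reported here. The models of dose and of effects within lines were not tested in this way.

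Ratios carry exact 95% counting intervals, and a count of 0 was bounded at 3 counts over the group. Every member was named; of other lists, at most 4 called genes with the largest change were named, and for chromosome neighbours and LAGE3 also genes not called; likeness names the 5 most similar genes. The members and lists were chosen with earlier results of these data known. The values of 1 chromosome neighbour are not reported here.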

Additional observations from a re-analysis of the deposited data

Results flagged for a closer look

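Among 25 groups of 4 lines, 3 held a library far from the others by Dixon's test on log2(CPM + 0.5). For normally distributed values chance gives about 1 in 20 groups. In the flagged groups the other lines were at or near 0, so that rate is no guide here. MAGEB1 stood at 34.2 CPM in H9 with romidepsin, against 0 to 0.405 CPM in the other lines. MAGEB2 stood at 70 CPM in untreated TLOm1, against 0 to 0.165 CPM elsewhere, and at 79.8 CPM in TLOm1 with romidepsin, against 0 to 0.135 CPM.

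The effect of romidepsin, matched on azacitidine dose, differed between the 4 lines for 3 genes by an edgeR test of equal effects. The adjusted p was 0.000321 for MAGEB1, 0.00158 for CTAG2 and 0.0063 for MAGEB2. On the log2 scale, MAGEB1 ranged from -1.50 (PF382) to -0.16 (H9, not called). CTAG2 was called at -1.01 in TLOm1 and 0.77 in HH, and had 1.64 ± 1.10 in H9 (adjusted p = 0.557), where it summed to 1 count. MAGEB2 was called at -1.25 in PF382 and 0.34 in TLOm1.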

How the results depend on the processing

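No value that was called in the reported fit or in the alternative turned its direction. Of 188 recomputed counts of called genes, 157 stayed within 1.5 times the reported count and 31 did not. Of the values of single genes, called or not, 1031 kept their side of the threshold or moved little. Another 78 lost a call, 18 gained one and 1 moved. For values called in neither fit, the direction was not compared. With no replicate block (libraries not paired by cell line), 0 of 6 genes were called for azacitidine or the combination at 125 or 250 nM against untreated cells and for the combination at 250 nM against romidepsin. With only the groups compared in the fit, the counts were 0 for those 4 comparisons with untreated cells and 1 for the comparison with romidepsin. DESeq2 called 2 genes for azacitidine at 125 nM, and limma called 3 for the combination at 250 nM against romidepsin. Leaving out 1 line at a time gave 1 to 2 genes at 125 nM, with azacitidine and with the combination, 3 to 5 at 250 nM in both, and 2 to 5 against romidepsin. The azacitidine effect in PF382 gave 0 calls with limma, with no low-count filter, without the romidepsin libraries, and with only 125 and 250 nM. In TLOm1 the same settings gave 1, 0, 0 and 1. With only 125 and 250 nM, HH gave 3 calls and the test of equal azacitidine effects 2. An alternative chosen after seeing the data, with only libraries that received azacitidine, gave 1 call for romidepsin in H9 (MAGEC1, log2 change -1.61, edgeR adjusted p = 0.0367). After centring within lines, the likeness of MAGEB2 to CES4A was 0.839. Except where a setting leaves fewer libraries, the cause was not tested. No line could be left out of the fits per line, where a line is its own comparison, and DESeq2 was run only on the model of groups. Depth limits the genes near 0: 3 counts are 0.131 CPM in untreated PF382.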
